A study of Mus musculus with 78 samples.

Results

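Flank skin injected with an adenovirus carrying VEGF-A164 (Ad-VEGF-A164) and left without antibody was examined at day 20 and set against flank tissue labelled control at day 0. The comparison takes in every gene on the array, and its members are 16 of the 78 arrays of the study, 8 untreated day 20 arrays and 8 control arrays, chosen by the sample labels alone. The host was the athymic nude mouse, Crl:NU(NCr)-Foxn1nu, female and 4 to 6 weeks old when injected, by the labels. Its Foxn1 mutation leaves the animal without a thymus, and the control mice carried it too. The virus went into the dermis of the ears and of the flank of the same animals. The study's remaining 62 arrays hold untreated tissue of other days and tissue from animals given the antibodies DC101 or G6, and enter here only in the shared estimate of spread and in a short comparison of days. No group given an empty vector is among the samples, so virus, injection, transgene and elapsed time cannot be told apart. Whether control animals were matched in age to day 20 is not stated, nor whether they were injected, and array numbers run with group, so array order and group cannot be told apart. At least 5 animals per group are stated and no label ties an array to an animal. Arrays may thus share animals, and p-values may then be too small.

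VEGF-A is a secreted growth factor that binds receptors on endothelial cells, chiefly VEGFR2 (Kdr), and drives vessel permeability, endothelial division and sprouting. VEGFR1 (Flt1) binds it tightly and signals weakly, and the neuropilins act as co-receptors. In adenoviral VEGF-A skin models, enlarged thin-walled mother vessels are known to form first and to give way to daughter vessels of several kinds, including glomeruloid tangles, malformations and muscular feeding vessels. Flank skin also holds epidermis, hair follicles, dermal fibroblasts, fat, a sheet of skeletal muscle and, in females, mammary gland.

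Values are levels, log2 of the authors' MAS5 signal plus 16, and differences are day 20 minus control on that log2 scale, so 1 unit is a doubling of signal plus 16. A gene was called when its adjusted p in a limma fit over all 10 groups of the study was under 0.05. Of 14718 genes tested, 6056 (41.1%) were called, 3342 (22.7%) higher and 2714 (18.4%) lower at day 20, and the median difference over all genes was 0.05. A change of at least 2-fold was reached by 800 of the higher genes (5.44% of those tested) and 745 of the lower genes (5.06%). The 8 day 20 levels lay wholly above the 8 control levels in 675 genes (4.59%) and wholly below them in 844 (5.73%). With this many genes moving, each count below is read against these shares.

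**Figure D1:**
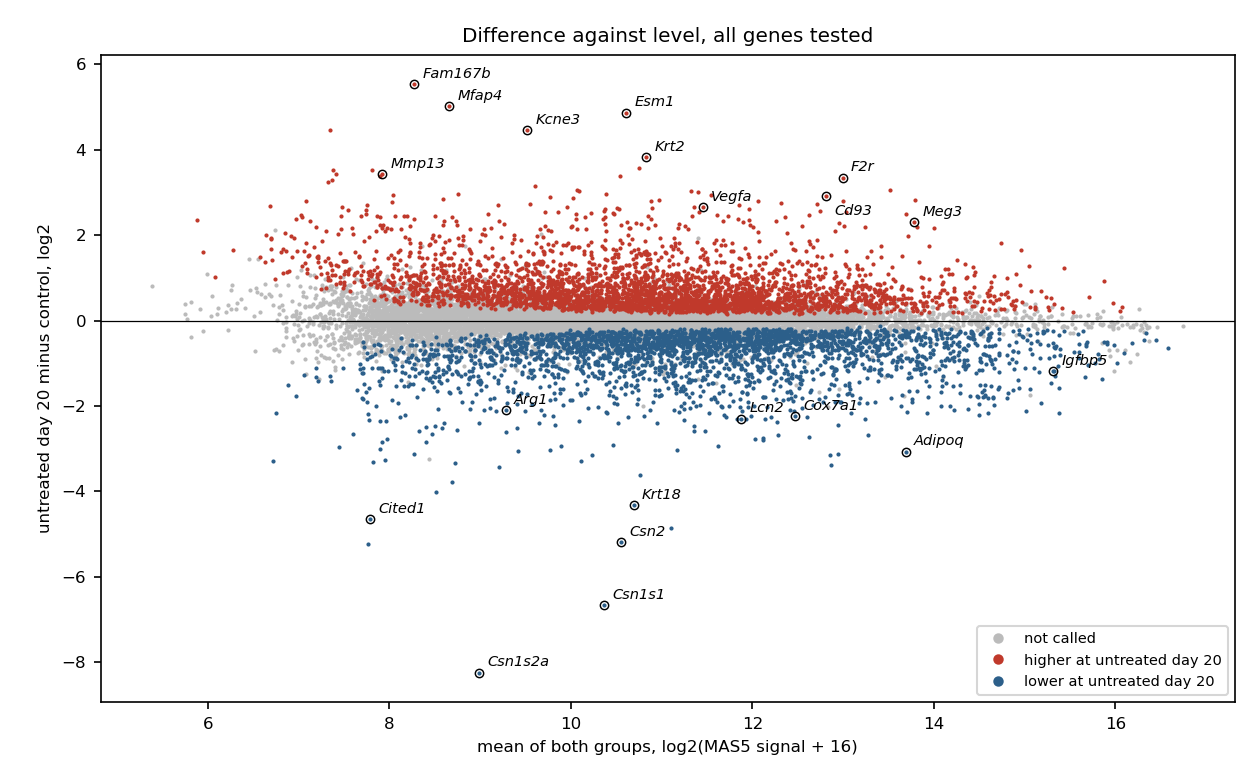
Difference between untreated day 20 and control (vertical axis, log2) against the mean level of both groups (horizontal axis, log2 of signal plus 16) for the 14718 genes tested, 1 point per gene. Red points were called higher at day 20, blue points lower and grey points were not called, and circles mark named genes. Esm1 stands at 4.87 and Csn2 at -5.18; where a whole group lies under the filter level, as for Fam167b and Csn1s2a, the plotted difference is not a measured fold.

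Array measures differed a little between the groups. The median signal ran from 512 to 583 at day 20 and from 455 to 537 in control arrays, and the Actb 3' to 5' signal ratio from 1.32 to 1.68 at day 20 and from 1.21 to 1.50 in control arrays. A fit that took both 3' to 5' ratios, of Actb and of Gapdh, as covariates called 3278 genes higher and 2669 lower, and of 219 named genes 4 lost their call in it and 0 changed direction. The day 20 arrays numbered 51 and 52 differed from the remaining 6 by the highest Vegfa and endothelial levels and very low hair and muscle levels. Without them 2640 genes were called higher and 2165 lower. The labelled tissue was borne out by its markers: all 4 epidermal, 4 fibroblast, 4 pericyte, 4 macrophage and 4 muscle markers lay above the filter level of 8.44 on all 16 arrays. The T cell markers Cd3d, Cd3e and Cd3g were under that level on all 16 arrays, and the B cell marker Cd79a likewise. The B cell markers differed among themselves. Ms4a1 lay above that level on all 16 arrays (8.94 to 10.13 at day 20, 8.68 to 9.70 in control tissue). Cd79b lay above it on 1 day 20 array and 0 control arrays.

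**Figure D2:**
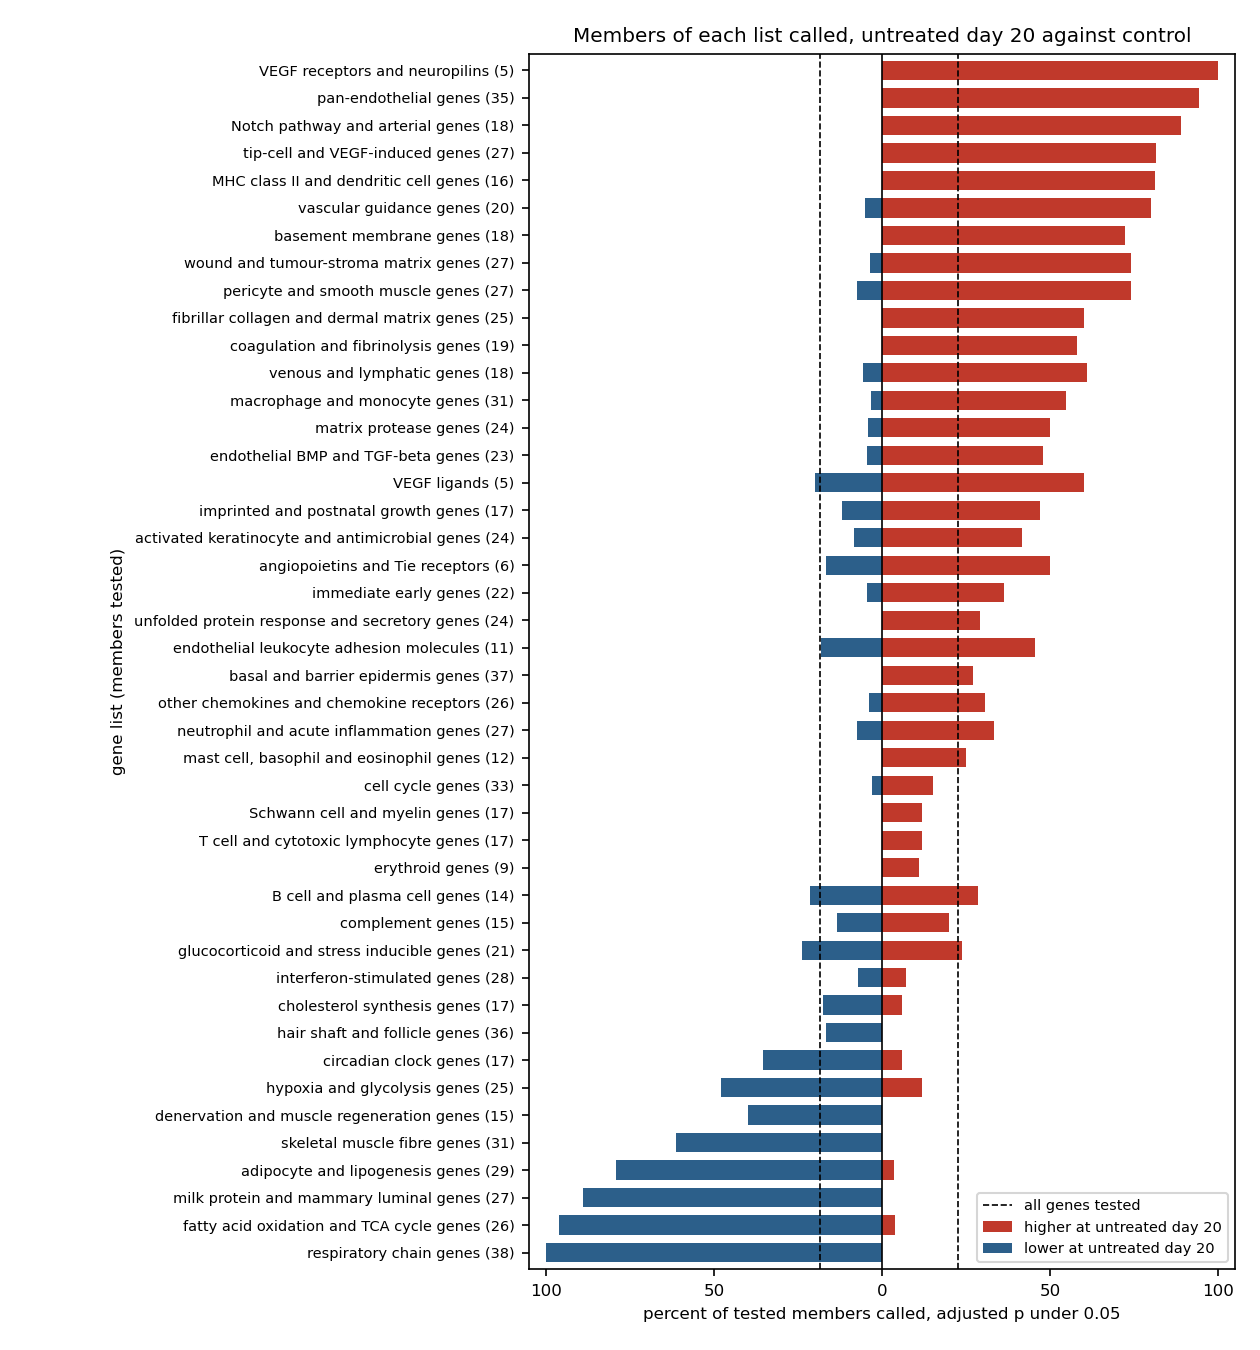
Percent of the tested members of each gene list called higher (red, to the right) or lower (blue, to the left) at untreated day 20 against control, with the number of members tested in brackets. Dashed lines mark the shares among all genes tested, 22.7% higher and 18.4% lower. The VEGF receptor, pan-endothelial and Notch lists stand at the top, and the respiratory chain, fatty acid oxidation, mammary and adipocyte lists at the bottom.

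The growth factor carried by the virus was examined first. Vegfa, by the brighter of its probe sets, had levels of 10.89 to 14.72 (median 12.56) at day 20 and 9.49 to 10.91 (median 10.18) in control tissue. It rose by 2.66 (SE 0.39, adjusted p = 7.1e-08), a 6.33-fold difference, with all 8 day 20 arrays above the control mean. The groups overlapped only through day 20 array 54, the lowest, while arrays 51 and 52 reached 14.64 and 14.72. Without those 2 arrays the rise was 2.03 (SE 0.37, adjusted p = 2.0e-05). The dimmer Vegfa probe set went the other way, with means of 10.29 at day 20 and 11.81 in control tissue, a difference of -1.51 (SE 0.18, adjusted p = 3.2e-10). Which transcript, injected or endogenous, each probe set reads was not tested.

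Among the other ligands, placental growth factor (Pgf), which binds VEGFR1, rose by 2.34 (SE 0.44, adjusted p = 1.2e-05), and Vegfc, the ligand of VEGFR3 known for lymphatic growth, rose by 1.36 (SE 0.27, adjusted p = 3.7e-05). Vegfb, a VEGFR1 ligand abundant in muscle and other oxidative tissue, fell by 1.30 (SE 0.31, adjusted p = 0.00039), and its levels did not overlap: 9.79 to 11.15 (median 10.42) at day 20 and 11.23 to 12.71 (median 11.62) in control tissue. Vegfd differed by 0.11 (SE 0.23, adjusted p = 0.75). So 3 of 5 ligands rose and 1 fell. All 5 receptor and neuropilin genes rose. Flt1 had levels of 10.98 to 13.62 (median 12.32) at day 20 and 9.40 to 10.57 (median 10.38) in control tissue, did not overlap, and rose by 2.17 (SE 0.30, adjusted p = 2.5e-08). Kdr ran from 11.05 to 13.83 (median 12.26) at day 20 and 10.06 to 11.12 (median 10.83) in control tissue, and rose by 1.65 (SE 0.26, adjusted p = 6.0e-07), with day 20 array 54 inside the control range. Without arrays 51 and 52 the rises of Flt1 and Kdr were 1.72 (SE 0.30, adjusted p = 7.5e-06) and 1.19 (SE 0.25, adjusted p = 0.00014). Flt4, the VEGFR3 of lymphatic and sprouting vessels, rose by 2.64 (SE 0.34, adjusted p = 3.3e-09) without overlap, the co-receptor Nrp1 by 1.38 (SE 0.22, adjusted p = 5.2e-07) and Nrp2 by 0.83 (SE 0.22, adjusted p = 0.0018). In bulk tissue, more cells of a type and more RNA per cell cannot be told apart, and this holds for every gene group below.

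**Figure D3:**
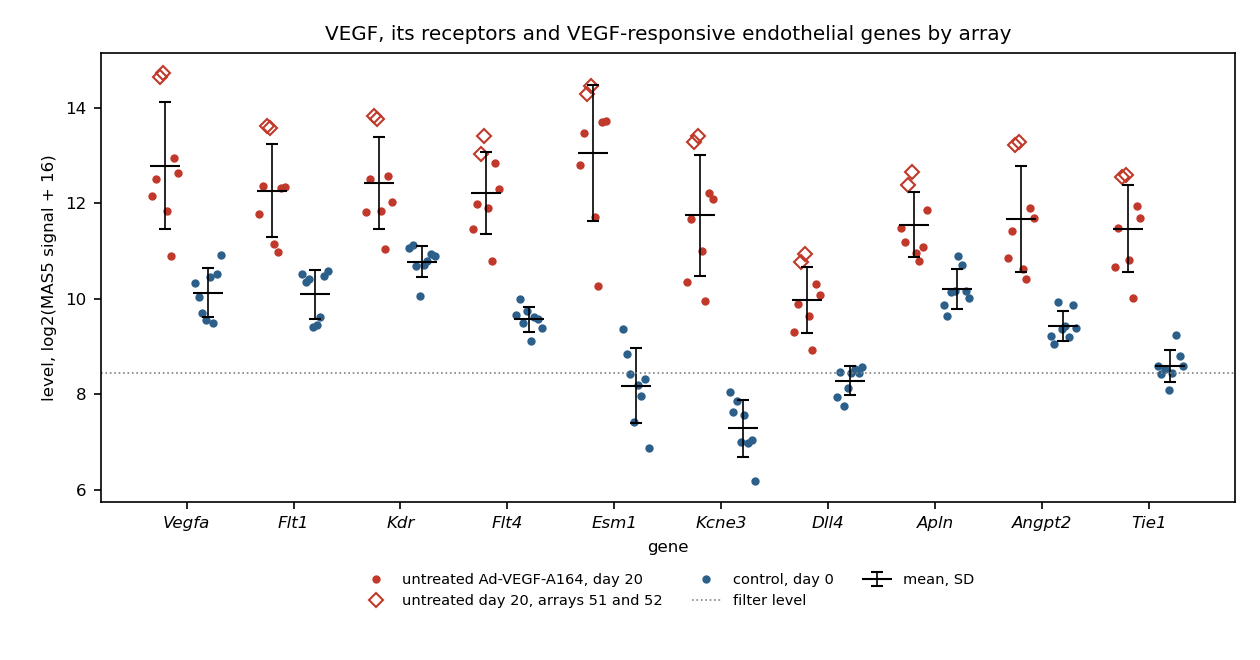
Levels of 10 genes of VEGF signalling and vessel sprouting on each array, as log2 of signal plus 16; red marks are untreated day 20 arrays and blue marks control arrays, 8 of each, with the group mean and SD in black. Open diamonds are day 20 arrays 51 and 52, and the dotted line is the filter level of 8.44. Arrays 51 and 52 are the highest 2 in each of the 10 genes, and Esm1 and Kcne3 lie far above their control levels.

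The angiopoietin and Tie group, which controls how firmly vessels are wrapped and sealed, split by member. Angpt2, the antagonist released by activated endothelium, had levels of 10.41 to 13.29 (median 11.54) at day 20 and 9.06 to 9.94 (median 9.38) in control tissue, with no overlap, and rose by 2.24 (SE 0.28, adjusted p = 2.4e-09). Its counterpart Angpt1, made by perivascular cells and a Tie2 agonist, fell by 0.49 (SE 0.15, adjusted p = 0.0062). The orphan receptor Tie1 rose by 2.88 (SE 0.38, adjusted p = 7.6e-09) and the phosphatase Ptprb (VE-PTP), which restrains Tie2, by 1.69 (SE 0.26, adjusted p = 2.5e-07), each without overlap. Tek, the Tie2 receptor itself, differed by 0.42 (SE 0.23, adjusted p = 0.15).

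Genes of sprouting tip cells and genes induced by VEGF rose in 22 of 27, with 0 lower and a median difference of 1.82 against 0.05 over all genes. Esm1, a proteoglycan of tip cells, ran from 10.27 to 14.45 (median 13.57) at day 20 and 6.87 to 9.37 (median 8.26) in control tissue, and rose by 4.87 (SE 0.56, adjusted p = 1.4e-10), 29.3-fold. Kcne3, a potassium channel subunit enriched in tip cells, ran from 9.96 to 13.41 at day 20, while every control array, 6.18 to 8.04, lay under the filter level. It was therefore at least 9.9-fold higher (adjusted p = 2.2e-13). The lowest day 20 level of both came from array 54, and no control array reached it. Apln, a peptide of sprouting endothelium, rose by 1.35 (SE 0.20, adjusted p = 8.7e-08) and its receptor Aplnr by 2.49 (SE 0.29, adjusted p = 3.9e-10). The Notch ligand Dll4, which restrains tip-cell number, rose by 1.69 (SE 0.21, adjusted p = 9.7e-10), Mcam by 2.95 and the growth factor binding protein Igfbp3 by 2.57. The 5 members not called were Rcan1 (-0.26), Nr4a1 (-0.19), Egr3 (-0.10), Insr (0.26) and Rgcc (0.65); Rcan1, Nr4a1 and Egr3 are known as rapid, short-lived VEGF responses. The count was again 22 without arrays 51 and 52.

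Of 35 pan-endothelial genes 33 rose and 0 fell, with a median difference of 1.77, and 26 did not overlap between groups. The list's mean level per array ran from 11.47 to 13.37 at day 20 and from 10.24 to 10.96 in control tissue, so the lowest day 20 array lay above the highest control array. The junction cadherin Cdh5 had levels of 11.97 to 14.15 (median 13.17) at day 20 and 10.37 to 10.99 (median 10.92) in control tissue and rose by 2.25 (SE 0.29, adjusted p = 4.2e-09). The surface receptor Cd93 rose by 2.91 (SE 0.31, adjusted p = 1.7e-11), the transcription factor Sox18 by 2.66 (SE 0.28, adjusted p = 2.1e-11) and Ushbp1 by 2.55 (SE 0.41, adjusted p = 7.4e-07). Pecam1, the platelet and endothelial adhesion molecule, rose by 1.67 (SE 0.31, adjusted p = 1.2e-05), with overlap. The other transcription factors on the list, Erg (2.10), Sox17 (2.19), Sox7 (1.82), Tal1 (1.85) and Fli1 (1.19), rose as well. The 2 genes not called were Tek and Cd34 (0.21, SE 0.20, adjusted p = 0.41), which is also made by dermal and follicle cells. Leaving out arrays 51 and 52 gave 33 higher, and so did leaving out any single array.

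ETS-family factors such as Erg and Fli1 act on many endothelial promoters, and their core motif is shown in 3 promoters of genes that rose together, chosen after the motif search because they hold it. Of the 35 pan-endothelial genes tested, 17 had a promoter in the RefSeq set (build GRCm38.p6). Capitals mark AGGAAG or, read on the other strand, CTTCCT, in the 150 bases just before the gene's start.
Egfl7, chr2:26580933-26581082, plus strand: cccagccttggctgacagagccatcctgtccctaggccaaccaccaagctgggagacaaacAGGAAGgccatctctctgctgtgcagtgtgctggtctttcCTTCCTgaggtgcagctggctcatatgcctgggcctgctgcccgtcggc
Emcn, chr3:137340928-137341077, plus strand: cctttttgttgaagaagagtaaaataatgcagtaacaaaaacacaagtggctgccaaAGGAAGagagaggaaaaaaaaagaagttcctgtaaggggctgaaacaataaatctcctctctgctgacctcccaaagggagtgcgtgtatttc
Robo4, chr9:37401822-37401971, plus strand: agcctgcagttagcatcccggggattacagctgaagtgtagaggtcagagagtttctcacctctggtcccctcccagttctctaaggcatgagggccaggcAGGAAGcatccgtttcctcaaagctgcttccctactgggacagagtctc
The motif begins 89 and 49 bases before the start of Egfl7, a secreted vessel-tube factor that rose by 2.37 (SE 0.27, adjusted p = 1.9e-10). It begins 93 bases before Emcn, a venous and capillary sialomucin that rose by 2.34 (SE 0.33, adjusted p = 2.8e-08), and 49 bases before Robo4, a vessel-stabilising receptor that rose by 2.16 (SE 0.24, adjusted p = 6.6e-11). In the same window 10 of the 17 endothelial promoters (58.8%) held the motif, against 6466 of 32851 promoters of all genes (19.7%). In the milk protein and mammary luminal list, whose genes mostly fell, 7 of 23 promoters (30.4%) held it. Here and in the casein search below, the lists were counted with a single promoter per gene and all genes with every promoter of the set. A match is a description of the letters and not a shown binding site.

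Notch pathway and arterial genes rose in 16 of 18 and fell in 0, with a median of 1.12. Notch4, the endothelial Notch receptor, had levels of 11.80 to 13.93 (median 12.97) at day 20 and 9.05 to 10.16 (median 9.92) in control tissue and rose by 3.03 (SE 0.37, adjusted p = 8.6e-10), 8.18-fold without overlap. The arterial connexin Gja4 rose by 2.80 (SE 0.33, adjusted p = 3.6e-10), Sox17, a factor of arterial identity, by 2.19 (SE 0.28, adjusted p = 4.0e-09), and the chemokine receptor Cxcr4 by 2.16 (SE 0.29, adjusted p = 1.1e-08). The Notch targets Hey1 (1.09) and Heyl (1.15) and the arterial ephrin Efnb2 (1.31) rose, and so did its venous receptor Ephb4 (1.15). Hey2, another target, was called higher, with all control arrays under the filter level. Notch1 (0.57) and Jag2 (0.40) were not called.

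Venous and lymphatic genes were mixed, with 11 of 18 higher and 1 lower. Prox1, the factor that sets lymphatic identity, ran from 8.12 to 10.25 at day 20, with every control array (5.21 to 7.07) under the filter level, and was at least 1.58-fold higher (adjusted p = 2.1e-07). Multimerin 1 (Mmrn1), made by lymphatic endothelium and platelets, rose by 3.39 (SE 0.49, adjusted p = 4.9e-08) without overlap, and the valve factor Foxc2 by 1.91 (SE 0.34, adjusted p = 3.6e-06). Lyve1, the hyaluronan receptor of lymphatics and of some macrophages, had levels of 12.22 to 14.37 (median 13.13) at day 20 and 11.67 to 14.57 (median 11.98) in control tissue and differed by 0.70 (SE 0.38, adjusted p = 0.13); control array Normal_095 held the highest of the 16 levels, and without it the gene was called higher. Il1r1 rose by 2.14 (SE 0.35, adjusted p = 8.6e-07). Ackr1, the chemokine-binding receptor of venules, was lower by 0.46 (adjusted p = 0.028), and this call was lost without arrays 51 and 52 (-0.20, adjusted p = 0.41). The venular genes Vwf (-0.20) and Selp (0.32) were not called.

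Leukocyte adhesion molecules were called higher in 5 of 11 (45.5%, against 22.7% of all genes) and lower in 2 (18.2%, near the 18.4% of all genes). Without arrays 51 and 52 the counts were 4 and 1. The 2 lower genes were Ackr1, described above, and Cd99l2 (-0.62), whose other probe sets differed by -0.65, 0.037 and 0.011. Icam2 rose by 2.39 (SE 0.37, adjusted p = 3.2e-07), Vcam1 by 1.67 (SE 0.31, adjusted p = 9.4e-06) and Icam1 by 1.06 (SE 0.20, adjusted p = 9.4e-06), while Sele differed by 0.40 (SE 0.25, adjusted p = 0.19). In the guidance list 16 of 20 rose. The semaphorin receptor Plxnd1 had levels of 11.86 to 13.91 (median 13.30) at day 20 and 10.45 to 11.01 (median 10.77) in control tissue, did not overlap and rose by 2.31 (SE 0.25, adjusted p = 2.2e-11); Sema6d rose by 1.55 (SE 0.18, adjusted p = 1.9e-10). The single guidance gene that fell, Sema3c (-0.90, adjusted p = 0.024), was not called without arrays 51 and 52 (-0.50, adjusted p = 0.27). In the BMP and TGF-beta list, 11 of 23 rose and 1 fell. The targets of BMP signalling Id3 (1.80, SE 0.18, adjusted p = 1.5e-12) and Id1 (1.48, SE 0.23, adjusted p = 3.1e-07) rose without overlap, with the co-receptor Eng (1.55), its partner receptor Acvrl1 (0.78) and Tgfb1 (1.43). Gdf2 (BMP9), a ligand of Acvrl1, was lower by 0.97 (SE 0.17, adjusted p = 5.4e-06).

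Pericytes and smooth muscle cells wrap vessels and answer to endothelial PDGF-B. Of 27 genes of these cells 20 rose and 2 fell, with a median of 1.22, and 19 rose without arrays 51 and 52. The pericyte gene Rgs5 had levels of 15.13 to 16.38 (median 15.85) at day 20 and 13.72 to 14.73 (median 14.14) in control tissue, did not overlap, and rose by 1.65 (SE 0.26, adjusted p = 5.9e-07). The PDGF-B receptor Pdgfrb rose by 1.99 (SE 0.28, adjusted p = 3.0e-08) and Pdgfb itself by 1.44 (SE 0.22, adjusted p = 2.3e-07). Rgs4 (2.51, SE 0.40, adjusted p = 6.2e-07), the hypoxia-linked Ndufa4l2 (2.55), and both subunits of soluble guanylate cyclase, Gucy1a1 (2.27) and Gucy1b1 (2.32), rose by over 2 units. Contractile genes were mixed. Smooth muscle myosin, Myh11, rose by 1.74 (SE 0.53, adjusted p = 0.0055) and Tagln by 1.22 (SE 0.32, adjusted p = 0.0014), while the smooth muscle actin Acta2 ran from 14.46 to 15.87 (median 15.51) at day 20 and 14.22 to 14.95 (median 14.51) in control tissue, and rose by 0.83 (SE 0.27, adjusted p = 0.01), a call lost without arrays 51 and 52 (0.67, adjusted p = 0.067). Cnn1 (-0.39), Lmod1 (-0.42) and Smtn (-0.22) were not called. The 2 falls were Des (-1.53), the intermediate filament of skeletal as well as smooth muscle, and Synpo2 (-1.64). The other probe sets of Synpo2 were split, with differences of 0.97, 1.39 and -1.38. Skeletal muscle list levels were also lower at day 20, and their part in these falls was not tested.

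Vascular basement membrane genes rose in 13 of 18 and fell in 0. The chains of the main network collagen, Col4a1 and Col4a2, rose by 1.82 (SE 0.23, adjusted p = 2.6e-09) and 2.20 (SE 0.27, adjusted p = 1.2e-09). Nid2 (2.25, SE 0.27, adjusted p = 6.7e-10), which links collagen to laminin, and Col18a1 (2.06, SE 0.24, adjusted p = 3.7e-10), the source of endostatin, rose too, and the endothelial laminin chain Lama4 by 1.14. Col4a1, Col4a2, Nid2 and Col18a1 did not overlap between groups. The chains Col4a3 (0.45) and Col4a5 (-0.09), which belong to other basement membranes, were not called.

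Stromal matrix rose as well. In the fibrillar and dermal list 15 of 25 were higher, and 20 of 27 in the wound and tumour-stroma list, with 1 lower. Col1a1 had levels of 14.43 to 15.07 (median 14.86) at day 20 and 12.55 to 13.80 (median 12.86) in control tissue and rose by 1.75 (SE 0.24, adjusted p = 2.5e-08); Col3a1 differed by 0.28 (SE 0.13, adjusted p = 0.077). Col12a1 rose by 2.33 (SE 0.31, adjusted p = 1.2e-08), the small proteoglycans Fmod and Bgn by 2.49 (SE 0.62, adjusted p = 0.00073) and 2.16 (SE 0.25, adjusted p = 1.5e-10), and elastin (Eln) by 1.37 (SE 0.29, adjusted p = 6.8e-05). Col8a1, a vessel-wall collagen, rose by 2.70 (SE 0.45, adjusted p = 1.3e-06), the matricellular factor Ccn2 by 2.46 (SE 0.35, adjusted p = 4.9e-08) and Adam12, a marker of activated stroma, by 2.26 (SE 0.32, adjusted p = 3.6e-08). Among the fibrillar and dermal genes not called, Dcn differed by -0.14 (SE 0.15, adjusted p = 0.48), and Lum (-0.36), Dpt (-0.28), Ogn (-0.12) and Pdgfra (-0.26) lay below 0. Fibronectin (Fn1) differed by 0.35 (SE 0.22, adjusted p = 0.21).

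Of 24 matrix protease genes 12 rose and 1 fell. Macrophage elastase, Mmp12, ran from 8.16 to 10.49 at day 20 and, with all control arrays under the filter level, was at least 2.19-fold higher (adjusted p = 1.5e-07). The collagenase Mmp13 was likewise at least 2.29-fold higher (adjusted p = 1.3e-07), although day 20 array 54 lay within the control range (6.89 to 11.08 at day 20, 4.80 to 7.11 in control tissue). Mmp11, a stromal protease, rose by 1.99 (SE 0.29, adjusted p = 7.6e-08) and cathepsin K (Ctsk) by 1.82 (SE 0.33, adjusted p = 7.3e-06). Mmp2 (0.44) and Mmp9 (-0.19) were not called. Coagulation and fibrinolysis genes rose in 11 of 19. The thrombin receptor F2r (PAR1) had levels of 13.09 to 15.78 (median 14.79) at day 20 and 10.73 to 12.84 (median 11.23) in control tissue, with no overlap, and rose by 3.35 (SE 0.32, adjusted p = 4.6e-13). Thbs1, a platelet and matrix protein that restrains vessel growth, rose by 1.69 (SE 0.34, adjusted p = 3.2e-05), tissue factor (F3) by 0.64 and its inhibitor Tfpi by 1.01.

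Macrophage and monocyte genes rose in 17 of 31 and fell in 1, with a median of 0.73. The number that rose was 14 without arrays 51 and 52. Clec4n (Dectin-2) had levels of 10.21 to 12.44 (median 11.76) at day 20 and 8.81 to 9.67 (median 9.27) in control tissue, did not overlap and rose by 2.49 (SE 0.38, adjusted p = 1.8e-07). Mpeg1 (1.81, SE 0.24, adjusted p = 5.4e-09), the monocyte receptor Ccr2 (1.75, SE 0.35, adjusted p = 3.5e-05) and the growth factor receptor Csf1r (0.78, SE 0.16, adjusted p = 5.4e-05) rose, as did the pan-leukocyte marker Ptprc (1.20, SE 0.26, adjusted p = 0.0001). Arg1, an enzyme of alternatively activated macrophages that keratinocytes also make, was lower by 2.09 (adjusted p = 0.0027), a call that rested on arrays 51 and 52: without them the difference was -1.10 (SE 0.56, adjusted p = 0.13). The list's mean level overlapped, 11.75 to 12.45 at day 20 and 10.97 to 12.42 in control tissue, through control arrays Normal_095 and Normal_096.

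Of 16 MHC class II and dendritic cell genes, which present antigen, 13 rose and 0 fell, with a median of 1.02. H2-Aa rose by 1.42 (SE 0.30, adjusted p = 7.7e-05) and H2-Eb1 by 1.26 (SE 0.31, adjusted p = 0.00061). Cd207 (langerin), the marker of epidermal Langerhans cells, had levels of 9.20 to 10.50 (median 10.22) at day 20 and 6.81 to 9.16 (median 7.93) in control tissue, did not overlap and rose by 2.03 (SE 0.42, adjusted p = 5.6e-05); the dendritic integrin Itgax rose by 1.39 (SE 0.30, adjusted p = 0.00011).

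Other leukocyte lists moved less. T cell and cytotoxic genes rose in 2 of 17, under the 22.7% of all genes, and the 2 were Cd4 (adjusted p = 0.002), which macrophages can also carry and whose group means both lay under the filter level, and Thy1 (0.71), which fibroblasts carry. B and plasma cell genes rose in 4 of 14 (28.6%) and fell in 3 (21.4%), near the 22.7% and 18.4% of all genes. Without arrays 51 and 52, 1 rose and 1 fell. The J chain gene Jchain was lower by 1.33 (adjusted p = 0.011). Acute inflammation and neutrophil genes were higher in 9 of 27 and lower in 2, but higher in 4 without arrays 51 and 52, 5 without control array Normal_102 and 4 after quantile normalization. S100a8 and S100a9, which activated keratinocytes also make, rose by 2.28 (SE 0.60, adjusted p = 0.0016) and 2.80 (SE 0.77, adjusted p = 0.0022), while Ltf and Lcn2, which mammary and other glandular epithelium also make, were lower by 1.13 (adjusted p = 0.026) and 2.30 (adjusted p = 0.0012). The neutrophil granule gene Ngp (-0.12) was not called. In the chemokine list 8 of 26 rose (30.8%, against 22.7% of all genes) and 1 fell. Ccl17, a dendritic cell chemokine, rose by 1.48 (SE 0.46, adjusted p = 0.0063), and the B cell chemokine Cxcl13 differed by 0.61 (SE 0.52, adjusted p = 0.37). Mast cell genes rose in 3 of 12 (25%), near the 22.7% of all genes. Histidine decarboxylase (Hdc) was at least 1.69-fold higher (adjusted p = 5.3e-06), and Tpsab1 (1.27) and Gata2 (0.96) rose. The proteases Cma1 (-0.40), Mcpt4 (-0.45) and Cpa3 (-0.27) were not called. Interferon-stimulated genes rose in 2 of 28 and fell in 2, both under the shares of all genes. Complement genes were higher in 3 of 15 (20%) and lower in 2 (13.3%), not above the shares of all genes. The number higher was 1 without arrays 51 and 52, 6 without control array Normal_095 and 6 after quantile normalization.

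In the epidermis list 10 of 37 rose and 0 fell, close to the 22.7% of all genes. Of those that rose 9 belong to the differentiated layers, and the other was Itga6 (1.05), an integrin of the basal layer. Krt10 had levels of 13.59 to 16.39 (median 15.49) at day 20 and 10.82 to 13.95 (median 12.90) in control tissue and rose by 2.82 (SE 0.66, adjusted p = 0.00036), its partner Krt1 by 2.81 (SE 0.68, adjusted p = 0.00051) and Krt2, a keratin of the upper layers, by 3.83 (SE 0.95, adjusted p = 0.00073). The barrier genes Hrnr (2.63, SE 0.81, adjusted p = 0.0067) and Lor (2.43, SE 0.73, adjusted p = 0.0054) rose too. With all arrays the basal keratins were not called: Krt5 differed by 0.12 (SE 0.37, adjusted p = 0.83) and Krt14 by 0.73 (SE 0.39, adjusted p = 0.13). Array 52 had the lowest Krt14 level (10.92), and without arrays 51 and 52 the gene was called higher (1.19, SE 0.36, adjusted p = 0.0084). In the activated keratinocyte list 10 of 24 rose and 2 fell. Sprr2d, a cornified envelope protein, ran from 10.82 to 14.68 (median 12.31) at day 20 and 8.57 to 10.27 (median 9.57) in control tissue, and rose by 2.82 (SE 0.75, adjusted p = 0.0017); Stfa3 rose by 3.58 (SE 0.88, adjusted p = 0.00063) and Krt6b by 2.55 (SE 0.74, adjusted p = 0.0039). Krt6a (-0.04) and Krt17 (-0.32) were not called. Sprr1a fell by 1.51 (adjusted p = 0.014) with all arrays and differed by -0.42 (adjusted p = 0.49) without arrays 51 and 52.

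The hair calls rested on arrays 51 and 52. The hair list's mean level was 7.58 and 7.56 on those 2 arrays and 11.22 to 13.34 on the other 6 day 20 arrays. In control tissue it was 11.33 to 13.12. With all arrays 6 of 36 genes (16.7%) were called lower, not above the 18.4% of all genes. Krt25, an inner root sheath keratin, ran from 7.83 to 16.76 (median 16.02) at day 20 and 15.73 to 16.76 (median 16.47) in control tissue, and was lower by 2.16 (adjusted p = 0.015). Without the 2 arrays it differed by -0.26 (SE 0.55, adjusted p = 0.76), and 0 of 36 hair genes were called. The hair shaft keratin Krt31 differed by -1.0 (adjusted p = 0.36) with all arrays and by 0.46 (adjusted p = 0.70) without the 2.

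**Figure D4:**
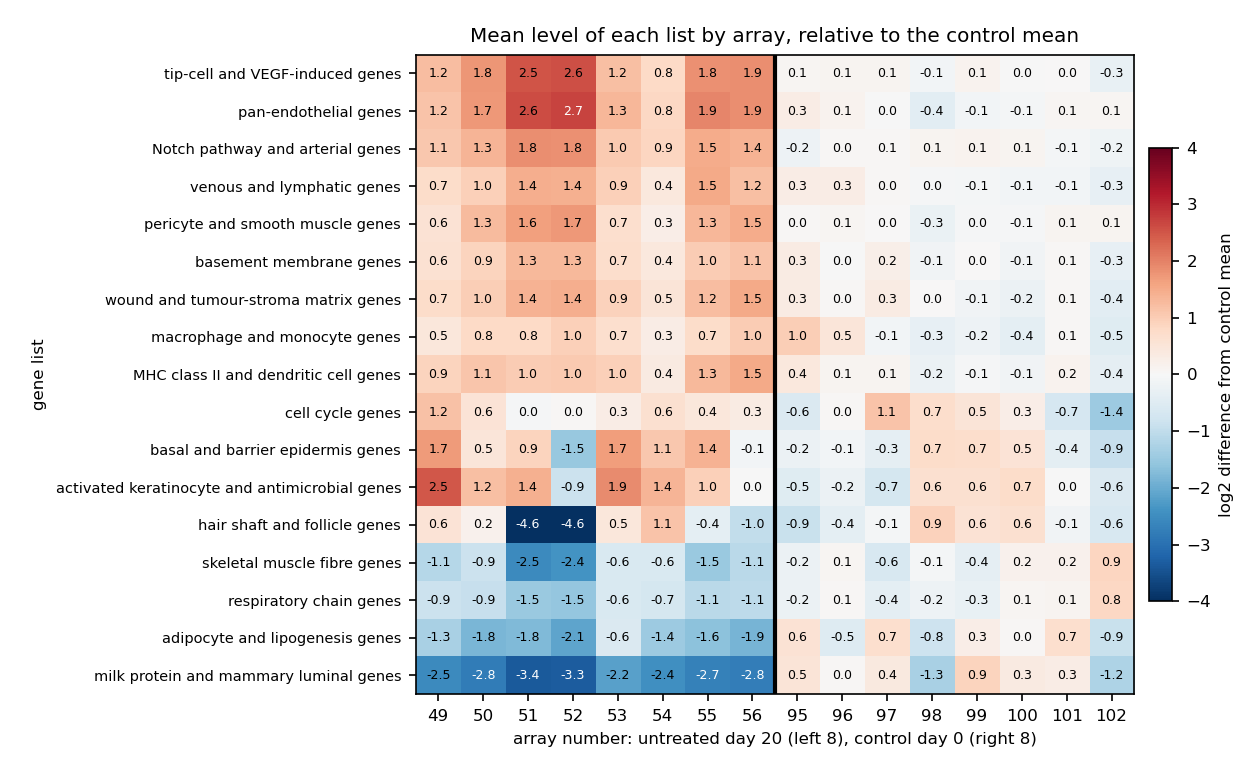
Mean level of 17 gene lists on each array, as the log2 difference from the control mean; columns are the 8 untreated day 20 arrays (49 to 56, left of the line) and the 8 control arrays, rows are lists. Red is higher and blue lower than the control mean. Endothelial, pericyte and matrix rows are red on all 8 day 20 arrays, arrays 51 and 52 show the lowest hair levels (7.58 and 7.56) and the strongest endothelial rise, and array 54 the weakest.

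Among the 44 lists, the shares called lower were largest in the respiratory chain, fatty acid oxidation, mammary, adipocyte and skeletal muscle fibre lists. All 38 respiratory chain genes were lower at day 20 and 34 did not overlap, with a median of -0.96, against 18.4% lower and 5.73% non-overlapping below control among all genes. Cox7a1, the muscle and heart isoform of a complex IV subunit, had levels of 9.46 to 12.53 (median 11.76) at day 20 and 12.44 to 14.94 (median 13.62) in control tissue and fell by 2.24 (SE 0.49, adjusted p = 0.00013). The other muscle isoforms Cox8b (-1.99) and Cox6a2 (-1.81) fell too. Subunits common to all tissues fell as well, among them complex II's Sdhb (-1.16, SE 0.15, adjusted p = 5.0e-09), complex III's Uqcrc2 (-1.07), Ndufs1 of complex I (-1.08) and Atp5a1 of the ATP synthase (-0.84). All 38 were again lower without arrays 51 and 52. Of 26 genes of fatty acid oxidation and the citric acid cycle 25 fell, and 1 rose. Ppargc1a, the coactivator of mitochondrial biogenesis, ran from 9.11 to 10.76 (median 10.06) at day 20 and 10.86 to 12.61 (median 11.46) in control tissue, and fell by 1.56 (SE 0.29, adjusted p = 1.3e-05). Acadl, a fatty acid dehydrogenase, fell by 1.30, Idh3a of the cycle by 1.23 and the nuclear receptor Ppara by 1.28. The gene that rose was Cpt1a (0.32, SE 0.08, adjusted p = 0.00097), the liver-type carnitine transferase.

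Skeletal muscle fibre genes were lower in 19 of 31 and higher in 0, with a median of -1.45. The list's mean level ran from 13.09 to 15.03 at day 20 and from 14.996 to 16.50 in control tissue. Without arrays 51 and 52, the lowest, 7 genes were called lower. Ampd1, the muscle AMP deaminase, had levels of 9.03 to 12.57 (median 11.97) at day 20 and 13.62 to 15.64 (median 14.55) in control tissue, did not overlap, and fell by 3.13 (SE 0.62, adjusted p = 3.5e-05); without the 2 arrays it differed by -2.39 (SE 0.64, adjusted p = 0.0026). The mitochondrial creatine kinase Ckmt2 (-2.17) and the release channel Ryr1 (-1.80) fell. Not all fibre genes were called by their brightest probe set: the creatine kinase Ckm differed by -0.82 (SE 0.45, adjusted p = 0.14) and the actin Acta1 by -0.27 (SE 0.41, adjusted p = 0.63). The dimmer Ckm probe set was past the threshold in the same limma fit run over probe sets. It differed by -2.02 (SE 0.40, adjusted p = 3.9e-05), so the result for Ckm depended on the probe set. In the denervation and regeneration list 6 of 15 fell, 3 without arrays 51 and 52 and 3 without control array Normal_102. The atrophy ligase Fbxo32 fell by 1.85 (adjusted p = 0.00011) and Myf6 by 2.17, while the embryonic myosin Myh3 (0.69) and Myog (-0.46) were not called. Skeletal muscle and respiratory chain levels were both lowest on arrays 51 and 52, and the part of muscle content in the respiratory result was not tested.

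Glycolysis and hypoxia genes were lower in 12 of 25 and higher in 3. The muscle enzyme Pfkm fell by 1.67 (adjusted p = 0.00053), Hk2 by 1.53 and Ldha by 1.19, and the mitophagy receptor Bnip3 by 1.41. Adm, a vasodilator peptide that VEGF and hypoxia both induce, went the other way, 11.32 to 13.34 (median 11.64) at day 20 and 9.44 to 10.71 (median 10.24) in control tissue, and rose by 1.83 (SE 0.24, adjusted p = 6.5e-09). The hypoxia markers Car9 (-0.36) and Slc2a1 (0.04) were not called.

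Adipocyte and lipogenesis genes fell in 23 of 29 and rose in 1, with a median of -1.63. Adiponectin (Adipoq), the adipocyte hormone, had levels of 11.07 to 14.69 (median 11.68) at day 20 and 13.82 to 16.05 (median 15.51) in control tissue and fell by 3.07 (SE 0.46, adjusted p = 1.3e-07), 8.39-fold, with overlap through day 20 array 53. Cidec, a lipid droplet protein, fell by 3.04, Pck1 by 3.04, fatty acid synthase (Fasn) by 2.68 and leptin (Lep) by 2.77. Fabp4 (-0.10), which endothelial cells and macrophages also make, and Pparg (0.76) were not called. The one that rose was Elovl3 (1.23, SE 0.37, adjusted p = 0.0052), which skin sebaceous cells also make. The falls numbered 22 without arrays 51 and 52.

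Milk protein and luminal genes were lower in 24 of 27 and higher in 0, with a median of -2.57. Csn1s2a, a casein, ran from 4.50 to 5.30 at day 20, under the filter level on all 8 arrays, and from 8.45 to 16.50 (median 14.18) in control tissue, so it was at least 25.4-fold lower (adjusted p = 5.9e-19). Csn1s1 was at least 38.3-fold lower (adjusted p = 1.4e-13). Beta-casein (Csn2) had levels of 7.26 to 8.51 (median 7.89) at day 20 and 8.70 to 16.25 (median 13.77) in control tissue, did not overlap, and fell by 5.18 (SE 0.49, adjusted p = 4.6e-13). Only 1 of the 8 day 20 levels of Csn2 lay above the filter level, so the size of this fall is uncertain too. Control arrays Normal_098 and Normal_102 held the lowest casein levels of their group. Structural luminal genes fell with less spread: the keratin Krt18, at 6.87 to 10.79 (median 8.53) at day 20 and 11.49 to 14.38 (median 12.81) in control tissue, fell by 4.33, and Krt8, at 8.10 to 10.14 (median 9.01) at day 20 and 11.31 to 14.27 (median 12.37) in control tissue, fell by 3.61, neither with overlap. The factor Elf5 fell by 2.20. Foxa1, a luminal factor outside the list, fell by 3.79. Cited1, an oestrogen receptor cofactor, was at least 3.2-fold lower and the water channel Aqp5 at least 4.21-fold. The progesterone receptor Pgr fell by 2.09, and Mfge8 (0.17), which endothelial cells and macrophages also make, was not called.

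Casein genes are driven by prolactin through STAT5, whose core motif is TTCNNNGAA, the same on both strands. It was searched in the 150 bases before the start of the 23 mammary genes of the list that had a RefSeq promoter (GRCm38.p6). The 2 promoters that held it are those of the caseins below, with the match in capitals.
Csn1s1, chr5:87666058-87666207, plus strand: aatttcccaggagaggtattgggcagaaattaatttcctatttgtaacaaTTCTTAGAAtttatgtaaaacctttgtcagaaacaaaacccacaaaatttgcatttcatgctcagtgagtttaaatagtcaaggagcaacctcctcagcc
Csn2, chr5:87699426-87699575, minus strand: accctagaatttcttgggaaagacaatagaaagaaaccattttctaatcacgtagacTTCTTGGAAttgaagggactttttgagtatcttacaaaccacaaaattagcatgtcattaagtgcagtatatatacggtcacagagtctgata
The match begins 100 bases before Csn1s1 and 93 bases before Csn2. The share was 2 of 23 (8.70%) in the mammary list and 1344 of 32851 promoters of all genes (4.09%). The promoter of Csn1s2a, another casein, held no match in this window, which says only that these letters are not there.

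**Figure D5:**
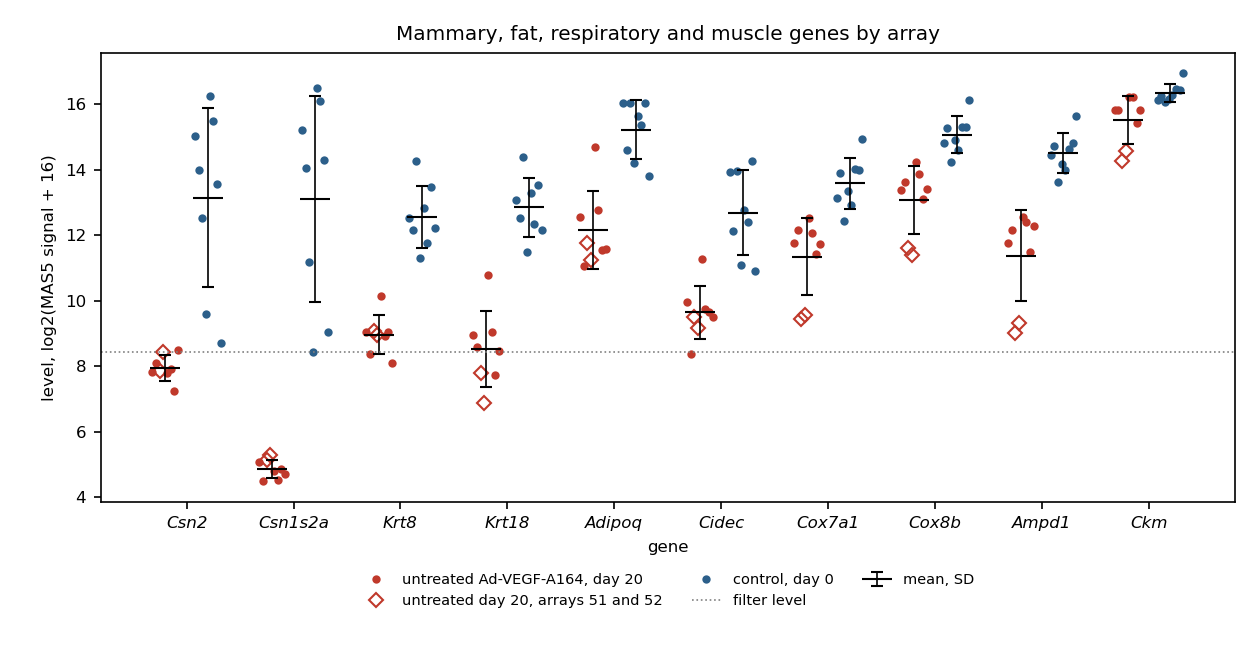
Levels of 10 mammary, fat, respiratory and muscle genes on each array, as log2 of signal plus 16; red marks are untreated day 20 arrays and blue marks control arrays, 8 of each, with the group mean and SD in black. Open diamonds are day 20 arrays 51 and 52, and the dotted line is the filter level of 8.44. The caseins Csn2 and Csn1s2a vary widely among control arrays and are low on all 8 day 20 arrays, and arrays 51 and 52 are the lowest for Cox7a1, Cox8b, Ampd1 and Ckm.

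Few cell cycle genes were called. Of 33 genes 5 rose and 1 fell, under the 22.7% of all genes. The proliferation marker Mki67 had levels of 11.01 to 13.32 (median 12.06) at day 20 and 9.63 to 13.06 (median 11.89) in control tissue and differed by 0.49 (SE 0.35, adjusted p = 0.27). The count moved with single arrays: 10 rose without arrays 51 and 52, 14 without control array Normal_097, the highest of its group, and 2 without control array Normal_102, the lowest.

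In the imprinted and postnatal growth list 8 of 17 rose and 2 fell. The imprinted RNA Meg3 had levels of 14.57 to 15.34 (median 14.91) at day 20 and 12.41 to 12.99 (median 12.60) in control tissue and rose by 2.31 (SE 0.22, adjusted p = 8.6e-13), and its neighbour Dlk1 ran from 10.30 to 11.29 (median 10.88) at day 20 and 8.35 to 9.20 (median 8.70) in control tissue, and rose by 2.10 (SE 0.24, adjusted p = 1.2e-10), neither with overlap. Mest rose by 1.44 (SE 0.22, adjusted p = 1.6e-07) and Igfbp2 by 2.44 (SE 0.60, adjusted p = 0.00069), while Igfbp5 fell by 1.18 (SE 0.29, adjusted p = 0.00059) without overlap and Igf2 differed by 0.03 (SE 0.21, adjusted p = 0.92). Immediate early genes rose in 8 of 22, with Klf6 up by 0.82 (SE 0.12, adjusted p = 6.3e-08) and Ier2 by 0.82, and 5 rose without control array Normal_102; Fos (0.41) and Egr1 (0.33) were not called. Unfolded protein response and secretory genes rose in 7 of 24 (29.2%, against 22.7% of all genes), with 4 without arrays 51 and 52 and 11 after quantile normalization. The retrieval receptor Kdelr3 rose by 0.86 (SE 0.23, adjusted p = 0.0019), and the chaperone Hspa5 differed by 0.20 (SE 0.09, adjusted p = 0.086). Glucocorticoid-inducible genes rose in 5 of 21 and fell in 5, near the 22.7% and 18.4% of all genes: Ddit4 rose by 0.86 (SE 0.19, adjusted p = 0.00012) and Sgk1 by 0.65, while Klf15 fell by 1.60 and Pdk4 by 1.60, and Tsc22d3 (0.13) and Per1 (0.25) were not called. Clock genes fell in 6 of 17 and rose in 1, but 3 fell without arrays 51 and 52 and 4 without control array Normal_102; Bhlhe40 fell by 1.08 (adjusted p = 3.4e-08) and Nr1d1 by 0.77, while Per2 rose by 0.55 and Clock differed by -0.02. The time of day of sampling is not given in the labels.

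The remaining lists gave few calls, none above the 22.7% higher and 18.4% lower of all genes. The share higher was 11.8% for Schwann cell, 11.1% for erythroid and 5.88% for cholesterol synthesis genes. Of the cholesterol synthesis genes 17.6% were lower. Schwann cell genes rose in 2 of 17, and these were Gap43, a growth-cone protein, which was at least 2.41-fold higher (adjusted p = 4.4e-07), and Fa2h (1.08); the myelin gene Mbp differed by -0.12 (SE 0.43, adjusted p = 0.85). Erythroid genes rose in 1 of 9, the haem synthesis gene Alas2, by 2.14 (SE 0.61, adjusted p = 0.0034), with Slc4a1 at 0.74 and not called. Cholesterol synthesis genes rose in 1 of 17 and fell in 3, with Insig1 lower by 0.91 (adjusted p = 0.0025).

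Genes outside the lists differed too. Fam167b ran from 9.20 to 12.81 at day 20, and all control arrays (4.77 to 6.25) were under the filter level, so it was at least 6.07-fold higher (adjusted p = 1.4e-13). Mfap4, a microfibril protein of elastic tissue, was at least 6.61-fold higher (adjusted p = 5.1e-06), the secreted carboxypeptidase Cpz at least 2.19-fold and neurotensin (Nts) at least 1.61-fold. Hapln1, which links hyaluronan to proteoglycans, was at least 1.49-fold higher and Doxl1 at least 1.64-fold, both with overlap through day 20 array 54. The beta-defensin Defb3, from the activated keratinocyte list, was at least 2.22-fold higher (adjusted p = 0.019), a call lost without arrays 51 and 52 (adjusted p = 0.064). Among the falls, the xenobiotic enzyme Cyp2e1 had levels of 9.99 to 13.32 (median 11.01) at day 20 and 13.14 to 15.70 (median 14.46) in control tissue and fell by 3.39 (SE 0.61, adjusted p = 6.5e-06). The melanocortin receptor partner Mrap fell by 3.42 and Plcd4 by 3.34, although its other probe set differed by 0.01, and the serum esterase Pon1 was at least 2.05-fold lower.

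Day 20 was also set against the untreated tissue of days 5 and 60 (8 arrays each) in the same fit, with the same 8 day 20 arrays in each comparison. RNA quality differed between these days. The Actb 3' to 5' ratio ran from 1.58 to 2.57 at day 60, against 1.32 to 1.68 at day 20. The Gapdh ratio ran from 0.91 to 1.10 at day 5, against 0.78 to 0.93 at day 20. The part of RNA quality in the day comparisons was not tested. Against day 5, 1533 genes (10.4%) were higher and 1440 (9.78%) lower at day 20; against day 60, 2018 (13.7%) were higher and 1758 (11.9%) lower, or 1232 and 697 without arrays 51 and 52. Cell cycle genes were lower at day 20 than at day 5 in 29 of 33 and macrophage genes in 19 of 31; Mki67 differed by -1.40 (adjusted p = 0.0024) and Ccl2, a monocyte chemokine, by -2.81 (adjusted p = 1.0e-08). Pan-endothelial genes were lower than at day 5 in 5 of 35, or 11 without arrays 51 and 52, and higher in 3, or 1. Per2 (2.19, adjusted p = 4.6e-17) was higher than at day 5. Against day 60, pan-endothelial genes were higher at day 20 in 32 of 35, and in 31 without arrays 51 and 52, and pericyte and smooth muscle genes in 22 of 27, or 18. Esm1 differed by 4.52 (adjusted p = 1.6e-09) and Meg3 by 1.68 (adjusted p = 1.5e-08). Milk and luminal genes differed from day 5 in few members, 1 higher and 2 lower, and Csn2 differed by 0.32 (adjusted p = 0.7) from day 5 and by -0.03 (adjusted p = 0.97) from day 60. Hair genes were lower than at day 60 in 19 of 36, and in 1 without arrays 51 and 52.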

How the data were processed

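RNA was measured on Affymetrix GeneChip mouse genome arrays. The deposited values are probe set intensity values on a linear scale, made by the authors with MAS5 in GCOS 1.3, per the submitters' processing notes, and scaled to a trimmed mean of 1500 on every array, as computed from the values. Of 45101 probe sets, 34958 carry 1 gene symbol, 932 several and 9211 none in the platform annotation.

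A value of 16 was added to each intensity before log2. Probe sets above 331.198 (the 40th percentile of all values, log2 level 8.44) on at least 6 arrays were kept, and the brightest stood for its gene, leaving 14718 genes. limma 3.58.1 in R 4.3.3 (lmFit, eBayes with trend, two-sided, Benjamini-Hochberg over all genes) was fitted to all 78 arrays in 10 groups. An "at least" fold sets the bright group's mean against the filter level where all arrays of the other group lie under it. On simulated data for this comparison (14718 genes, 200 changed), the fit recovered 35% of 100 genes set 0.5 apart on the log2 scale. It recovered 85% of another 100 set 1 apart, and 8 of its 128 calls were false. In the measured data 6056 genes were called, far more than the 200 set to change. Whether these shares hold for the measured data was not tested.

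The 44 gene lists (988 genes, 898 tested) and the members described were chosen with earlier results of these data known. Genes were named by a rule: the 15 largest rises and falls, up to 4 in each direction per list, and 22 genes always reported, 219 in all; others in the text were added after their values were seen. Promoters are RefSeq, GRCm38.p6, 150 bases before each gene's start. No 2 of the 16 arrays were copies (highest correlation 0.966). Precision is limited by 8 arrays a group. Alternatives tried were the pseudocount, the filter, quantile normalization, probe set choice, the groups fitted, array weights, RNA quality covariates, averaging neighbouring arrays and leaving out arrays.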

Additional observations from a re-analysis of the deposited data

Results flagged for a closer look

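In 438 groups of 8 values checked (219 genes in both groups), 24 held a single array far from the other 7, with a gap, as a share of the group's range, above Dixon's critical value for 8 values. The flags were not spread evenly: control array Normal_102 held 7 and control array Normal_097 held 6. The rule looks for a single array, so arrays that deviate together can escape it. Whether the number of flags differs from chance was not tested. Day 20 array 54 was lowest for Cd79b (5.942), Clec4n (10.21), Csn1s1 (5.195) and Fmod (8.983). Day 20 array 50 was highest for Cd4 (8.559), array 49 for Cdk1 (11.87), and array 51 was lowest for Cd99l2 (10.72). Control array Normal_102 was highest for Atp5g1 (15.27), Bhlhe40 (13.50), Ckm (16.95), Idh3a (15.37) and Ppargc1a (12.61), and lowest for Gap43 (4.806) and Id3 (10.93). Control array Normal_097 was highest for Col18a1 (12.27), Cxcr4 (11.02), F2r (12.84), Mfap4 (8.428) and Vegfc (10.80), and lowest for Fa2h (10.52). Control array Normal_098 was lowest for Cdh5 (10.37) and Kdr (10.06). Control array Normal_095 was lowest for Krt25 (15.73) and highest for Mpeg1 (11.55).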

How the results depend on the processing

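Genes called higher and lower numbered 3342 and 2714, and 2932 and 3047 after quantile normalization, which shifted the median of all genes to -0.01 and the share of calls that were higher to 49.04%, against 55.2%. Requiring 2-fold left 800 and 745. With each array left out in turn, 2803 to 3445 were higher and 2423 to 2801 lower, fewest without control array Normal_102. Without day 20 arrays 51 and 52, the calls against day 60, an alternative chosen after seeing the data, were 1232 higher and 697 lower, against 2018 and 1758, and 33 of 219 named genes lost their call. Averaging neighbouring arrays did so for 25. Among named genes that were called, direction changed with other probe sets of the gene, 20 in all: Cd99l2 (0.037 and 0.011), Fdft1 (0.050 and 0.30), Hif3a (-0.29), Igf2bp3 (0.10 and 0.10), Ighm (0.43, 1.15 and 0.13), Masp1 (-1.05), Nr4a2 (-0.61), Plcd4 (0.011), Sc5d (0.031), Synpo2 (0.97 and 1.39), Thrsp (0.20), Vegfa (-1.51) and Xbp1 (-0.11 and -0.14). Of these, Ighm at 1.15, Masp1, both for Synpo2 and Vegfa were past the threshold; the cause was not tested. Krt31, not called, turned from -1.0 with all arrays to 0.46 without arrays 51 and 52, and over all genes the mean of probe sets gave 13 calls of opposite direction. No paired analysis was possible because the array numbers of the groups do not overlap and no label ties arrays to animals. Where a whole group lies under the filter level, genes are given as bounds or without a fold.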

Other observations

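Further members of the gene groups above, not named there, differed at day 20. The hormone stanniocalcin 1 (Stc1) was higher by 2.00 (SE 0.27, adjusted p = 7.6e-09), and Ramp3, which turns the calcitonin-like receptor into an adrenomedullin receptor, by 2.00 (SE 0.30, adjusted p = 1.7e-07). That receptor, Calcrl, was higher by 1.35 (SE 0.22, adjusted p = 8.5e-07). The keratinocyte chemokine Ccl27a was lower by 0.55 (adjusted p = 0.0058), and the chaperone and complement regulator Clu by 0.95 (adjusted p = 0.00014). The calls of the epithelial alarmin Il33 (-0.94, adjusted p = 0.012), the complement regulator Cd55 (-0.92, adjusted p = 0.02) and the receptor C3ar1 (0.64, adjusted p = 0.013) were lost without arrays 51 and 52, where the differences were -0.42 (adjusted p = 0.30), -0.58 (adjusted p = 0.20) and 0.56 (adjusted p = 0.062).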
